A study of Mus musculus with 800 samples.

Results

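Long noncoding RNAs that act or are kept mainly in the nucleus were followed across 800 single nuclei of the mouse brain, as 10 genes: Malat1, Neat1, Meg3, Rian, Mirg, Miat, Snhg11, Peg13, Kcnq1ot1 and Rmst. They were chosen by a list of symbols, and all 10 were matched through their Ensembl identifiers to the 32285 genes of the deposited count table. Each had counts in at least 127 of the 800 nuclei. Together they took 24.5% ± 2.77 of the counts of glutamatergic-like nuclei (SD over 12 vectors), 17.6% ± 1.03 in GABAergic-like nuclei (18 vectors), 24.3% ± 2.05 in striatal projection neuron-like nuclei (14 vectors), 20.7% ± 4.28 in astrocyte-like nuclei (9 vectors) and 18.3% ± 3.35 in oligodendrocyte-like nuclei (7 vectors), most of it from Malat1.

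Long noncoding RNAs are transcribed and spliced like messenger RNAs but are not read as protein, and many stay in the nucleus. Malat1 gathers in nuclear speckles, bodies rich in splicing factors, and Neat1 is the scaffold of paraspeckles, which hold RNA-binding proteins; the genes are neighbours, and Malat1 and the long form of Neat1 end in a triple helix instead of a poly(A) tail added by the usual machinery. Meg3, Rian and Mirg lie one after the other in the imprinted Dlk1-Dio3 domain and are made from the maternal chromosome, while Kcnq1ot1 and Peg13 are imprinted RNAs made from the paternal chromosome that silence or mark genes around them. Miat, also called Gomafu, marks subsets of neurons and binds splicing factors, and Rmst is known for a partnership with the transcription factor SOX2. Snhg11 is a host gene of small nucleolar RNAs, and the GENCODE M21 annotation used here for gene structure lists it as protein-coding.

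The nuclei came from adult C57Bl/6J mice given 1 of 20 AAV vectors of the PHP.eB serotype at 5e11 vg per mouse, each with an enhancer or promoter that drove the nuclear reporter H2B-SYFP2. Reporter-positive nuclei were sorted 3 to 4 weeks later, and 40 were sequenced for each vector, with 1 nucleus per SMART-Seq v4 library. All groups share the strain, serotype, dose and reporter, and no nucleus without a vector is among them, so no comparison here is between treated and untreated animals. The vectors are 2 general promoters, hSyn1 and CMV, the forebrain interneuron enhancers DLX2.0 and hI56i, and 16 enhancers with AiE codes. Every sample label names the anterior lateral motor cortex, while the series' design text also names the striatum and the primary visual cortex, and nuclei with the markers of striatal projection neurons were found under this label. The labels name no animals. A vector was therefore taken as 1 sample, and p-values measure only the spread between vector sums, which may be technical.

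Counts per nucleus ran from 70 to 901264 with a median of 260170.5, and genes with a count from 43 to 10499 with a median of 2576.5. A nucleus was used for the main classes if it had at least 1000 genes, which 698 had and 102 did not. Clusters were named from marker genes, and neither the 10 RNAs nor the genes of the lists below entered the clustering. The classes held 108 glutamatergic-like, 273 GABAergic-like, 161 striatal projection neuron-like, 106 astrocyte-like and 50 oligodendrocyte-like nuclei. Of each class's own markers, 6 of 7, 7 of 10, 10 of 10, 7 of 8 and 9 of 9 had a count in at least 25% of its nuclei. Glial nuclei had fewer genes (a median of 1454 for the astrocyte-like and 1139.5 for the oligodendrocyte-like class) than the neuronal classes (2652 to 3264.5) at similar or higher counts. For most other cell types the marker sum was at 0 in a class's median nucleus. Exceptions were striatal (217 CPM) and astrocyte markers (354) in glutamatergic-like and striatal markers (282) in GABAergic-like nuclei. Striatal projection neuron-like nuclei had GABAergic (412) and oligodendrocyte markers (108), and astrocyte-like nuclei oligodendrocyte markers (326). Single astrocyte-like nuclei reached 36114.7 CPM of oligodendrocyte markers and 12907.8 CPM of endothelial markers. Single striatal projection neuron-like nuclei reached 71411.2 CPM of oligodendrocyte, 13129.9 CPM of microglia and 11752.8 CPM of pericyte markers. Their part in the results was not tested. Unless another unit is named, levels are CPM, the counts of a gene scaled to 1000000 counts of all genes, of the summed nuclei of 1 class and 1 vector with at least 3 such nuclei.

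The sequences that make these RNAs recognisable are shown first, from the GENCODE M21 transcripts (GRCm38) and RefSeq promoters (GRCm38.p6). Malat1 is at chr19:5795690-5802672 and Neat1 at chr19:5824708-5845478, both on the minus strand and each a single exon in its longest transcript. Near the 3′ end both transcripts hold an A-rich tract. The capitals mark AAAAAGCAAAA, the longest stretch that the last 320 bases of the 2 transcripts share. These 11 bases occur in the last 320 bases of 20 of 13374 long noncoding RNA genes (0.150%, RNA strand). The Malat1 run lies at chr19:5795972-5796087 and ends before the annotated end of the transcript, and the Neat1 run, at chr19:5824708-5824813, ends with it. Over the printed runs, which in Malat1 begin before the last 320 bases, longer stretches are shared outside that window, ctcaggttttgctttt (16 bases) and tttcttttcctga (13 bases).
Malat1-201: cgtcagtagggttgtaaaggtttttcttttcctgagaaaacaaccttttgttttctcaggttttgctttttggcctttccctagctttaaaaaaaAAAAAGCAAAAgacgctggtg
Neat1-201: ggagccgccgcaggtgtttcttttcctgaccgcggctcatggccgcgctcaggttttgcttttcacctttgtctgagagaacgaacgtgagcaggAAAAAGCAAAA

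Miat, at chr5:112213228-112229395 on the minus strand, carries repeats of TACTAAC, the letters of a splicing branch point, which are in capitals below. Its longest transcript, Miat-205, has 6 copies in 9163 bases. At least 6 copies were found in 2 of the 13374 long noncoding RNA genes (0.0150%, RNA strand) and at least 1 copy in 613 (4.58%). Among the other members, Kcnq1ot1 has 4 copies in 93092 bases, Neat1 has 1 and the remaining genes have 0. The runs lie at chr5:112217311-112217458 and chr5:112216754-112216810.
Miat-205, first 3 copies: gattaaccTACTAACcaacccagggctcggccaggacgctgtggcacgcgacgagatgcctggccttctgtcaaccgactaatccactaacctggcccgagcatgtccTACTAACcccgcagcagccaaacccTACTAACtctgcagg
Miat-205, last 3 copies: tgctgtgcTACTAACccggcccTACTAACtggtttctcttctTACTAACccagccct

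Promoters, here 250 bases before to 50 after the start, were matched for 7 of the 10 genes. Those of Meg3 (chr12:109540746-109541045, plus strand) and Kcnq1ot1 (chr7:143296498-143296797, minus strand) are printed because both genes are imprinted yet differ in how strictly they followed neurons below. The table holds a second Meg3 entry (chr12:109545148-109545447, plus strand), not printed, which holds none of the motifs. Capitals mark CCAAT, the cAMP response element TGACGTCA and TATAAA, searched on both strands. In Meg3, TATAAA is found on both strands and its 2 matches overlap. Of 32851 RefSeq promoters, 37.4% hold CCAAT, 1.79% hold TGACGTCA and 13.6% hold TATAAA. The Kcnq1ot1 window holds 3 copies of CCAAT and neither of the other motifs. A match is a match of letters only.
Meg3 promoter: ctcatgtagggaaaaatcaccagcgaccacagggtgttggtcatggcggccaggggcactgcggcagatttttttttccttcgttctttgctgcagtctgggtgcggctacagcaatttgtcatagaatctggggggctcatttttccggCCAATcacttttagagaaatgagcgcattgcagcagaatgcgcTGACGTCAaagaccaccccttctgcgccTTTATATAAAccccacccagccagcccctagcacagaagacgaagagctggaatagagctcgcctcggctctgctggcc
Kcnq1ot1 promoter: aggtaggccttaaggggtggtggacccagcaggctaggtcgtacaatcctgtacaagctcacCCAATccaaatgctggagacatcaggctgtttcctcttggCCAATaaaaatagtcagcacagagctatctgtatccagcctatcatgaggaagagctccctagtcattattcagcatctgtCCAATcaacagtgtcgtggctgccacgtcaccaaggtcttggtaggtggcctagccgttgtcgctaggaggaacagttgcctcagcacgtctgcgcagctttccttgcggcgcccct

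**Figure D1:**
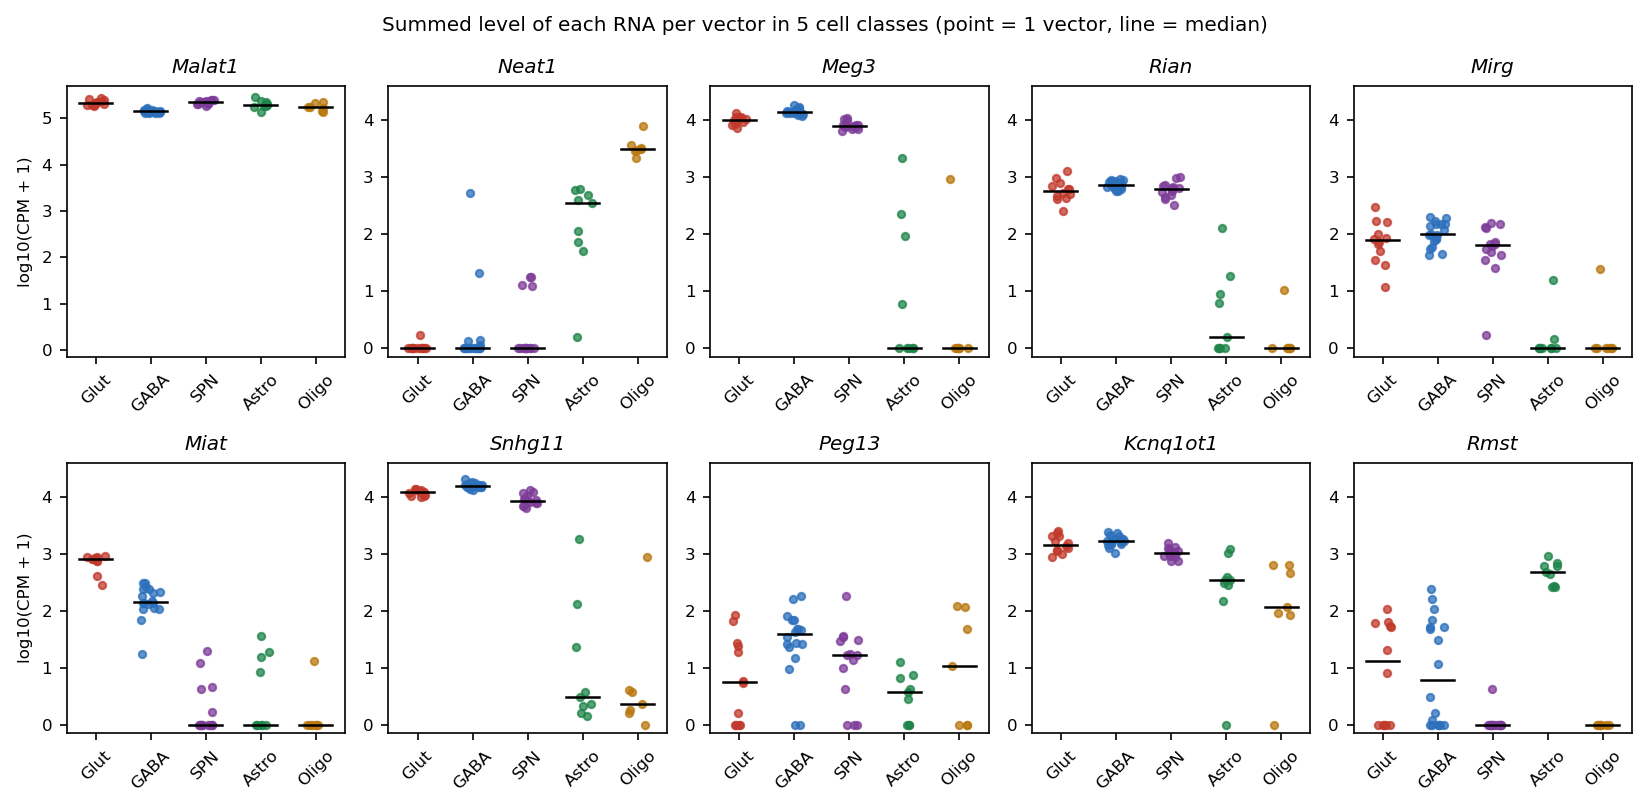
Level of each of the 10 RNAs by class, as log10(CPM + 1) on the vertical axis; each point is the summed nuclei of 1 vector and the line is the median over vectors. Malat1 is high in all 5 classes, Meg3, Rian, Mirg and Snhg11 are high in the 3 neuronal classes, Neat1 is highest in oligodendrocyte-like nuclei, Rmst in astrocyte-like nuclei and Miat in glutamatergic-like nuclei.

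The 10 RNAs fell into different patterns over the 5 classes, as the plot of levels by class shows. Meg3, Snhg11, Rian and Mirg were neuronal, Neat1 was glial, Rmst was found mostly in astrocyte-like nuclei, Miat mostly in glutamatergic-like and some GABAergic-like nuclei, and Malat1 was abundant in every class. Compared per kilobase of exon, so that genes of different length can be ranked, Malat1 came first in every class, from 20533 CPM per kilobase in GABAergic-like to 32041 in striatal projection neuron-like nuclei. Snhg11 was the second in GABAergic-like nuclei at 1858 CPM per kilobase and Meg3 the third at 791. In oligodendrocyte-like nuclei Neat1 came second at 179 CPM per kilobase, and in astrocyte-like nuclei Rmst did at 67.9, but over the whole gene, introns included, Rmst had 5.36 CPM per kilobase and came behind Neat1, at 14.3.

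Classes were compared with edgeR's quasi-likelihood test on the counts summed per vector and class, with the vector as a block, and a gene was called at a Benjamini-Hochberg adjusted p under 0.05 over all genes tested. Between GABAergic-like and glutamatergic-like sums of 12 vectors, 3 of the 9 members tested were called, 1 higher and 2 lower, where 3.16% of all 8943 genes were called (1.69% higher, 1.48% lower). Between glia and neurons of 15 vectors, 7 of 10 were called, 1 higher and 6 lower, where 34.7% of all 9789 genes were called (2.1% higher, 32.6% lower), so that a lower call there is common. Striatal projection neuron-like against GABAergic-like sums of 12 vectors gave 5 calls of 8, 1 higher and 4 lower, against 8.53% of genes (3.19% higher, 5.34% lower). Striatal projection neuron-like against glutamatergic-like sums of 9 vectors gave 1 call of 8, lower, against 3.08% of genes (1.66% higher, 1.42% lower). Astrocyte-like against oligodendrocyte-like sums, 9 against 7 without a block because only 1 vector held both, gave 3 calls of 5, 2 higher and 1 lower, against 9.92% of genes (8.23% higher, 1.69% lower). The 3 neuronal comparisons share sums: each class stands in 2 of them, and their values are given side by side and not as separate support. Neat1 passed the filter on low counts only where glia entered, and it and Rmst were not tested between striatal projection neuron-like and other neuronal sums.

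Malat1, the speckle RNA, divided the neurons: GABAergic-like nuclei had less of it than either of the other neuronal classes. In the 12 vectors that held both classes, Malat1 lay between 130299 and 165187 CPM in GABAergic-like sums, with a median of 143890, and between 184934 and 269778 CPM in glutamatergic-like sums, with a median of 214727. Every vector was lower in its GABAergic-like sum, and the ranges did not overlap. The means were 143262 ± 9204 and 220156 ± 26532 CPM (SD, n = 12), and edgeR's log2 fold change was -0.74 ± 0.07 (SE, adjusted p = 3.8e-08), where the median over all genes was 0.34. In 12 vectors with striatal projection neuron-like nuclei, the range was 189309 to 250237 CPM (median 225550), against 129949 to 154313 CPM (median 142856) in the GABAergic-like sums of the same vectors. These ranges did not overlap either, and all 12 vectors were higher (log2 fold change 0.69 ± 0.07, edgeR adjusted p = 5.4e-07).

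Striatal projection neuron-like and glutamatergic-like sums were close in Malat1, at 221749 ± 20537 and 226368 ± 27764 CPM (SD, n = 9), with 4 vectors higher and 5 lower (log2 fold change -0.03 ± 0.08, edgeR adjusted p = 0.981). Glial sums, at 189473 ± 38918 CPM, fell among the neuronal sums of the same 15 vectors, at 182569 ± 29192, with 7 vectors higher and 8 lower (log2 fold change -0.01 ± 0.16, edgeR adjusted p = 0.952). Within glia, astrocyte-like sums ran from 140516 to 290443 CPM (median 198560) and oligodendrocyte-like sums from 139720 to 229982 CPM (median 178528). These ranges overlapped and the means stood in a ratio of 1.15, but after scaling by TMM Malat1 was called higher in astrocyte-like sums (log2 fold change 0.78 ± 0.18, edgeR adjusted p = 0.00301). That value is close to the median of all genes in the comparison, 0.71, and DESeq2 gave 0.54 with an adjusted p of 0.624, so the call depends on the tool.

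In order of mean level, Malat1 was thus highest in striatal projection neuron-like and glutamatergic-like sums, then in astrocyte-like, oligodendrocyte-like and GABAergic-like sums; only the gap from GABAergic-like to the other neurons exceeded the ranges over vectors. The gap in means was present in both large library series, the only batch in the labels. Within S40324 no vector held at least 3 nuclei of both classes, so class and vector cannot be told apart there. In series S40324 the GABAergic-like sums averaged 150483 ± 14545 CPM (SD, n = 9) and the glutamatergic-like 233126 ± 49012 (n = 4), and in series S40326 138966 ± 13879 (n = 13) and 217771 ± 26464 (n = 7). The annotated antisense gene Gm37376 overlaps Malat1, and since the libraries do not mark strand, its reads cannot be told apart from those of Malat1. The same limit holds where Gm26906 overlaps Meg3, Gm26953 overlaps Miat and Gm26700 overlaps Rmst, all antisense, and where Gm26945 overlaps Rian on the same strand.

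**Figure D2:**
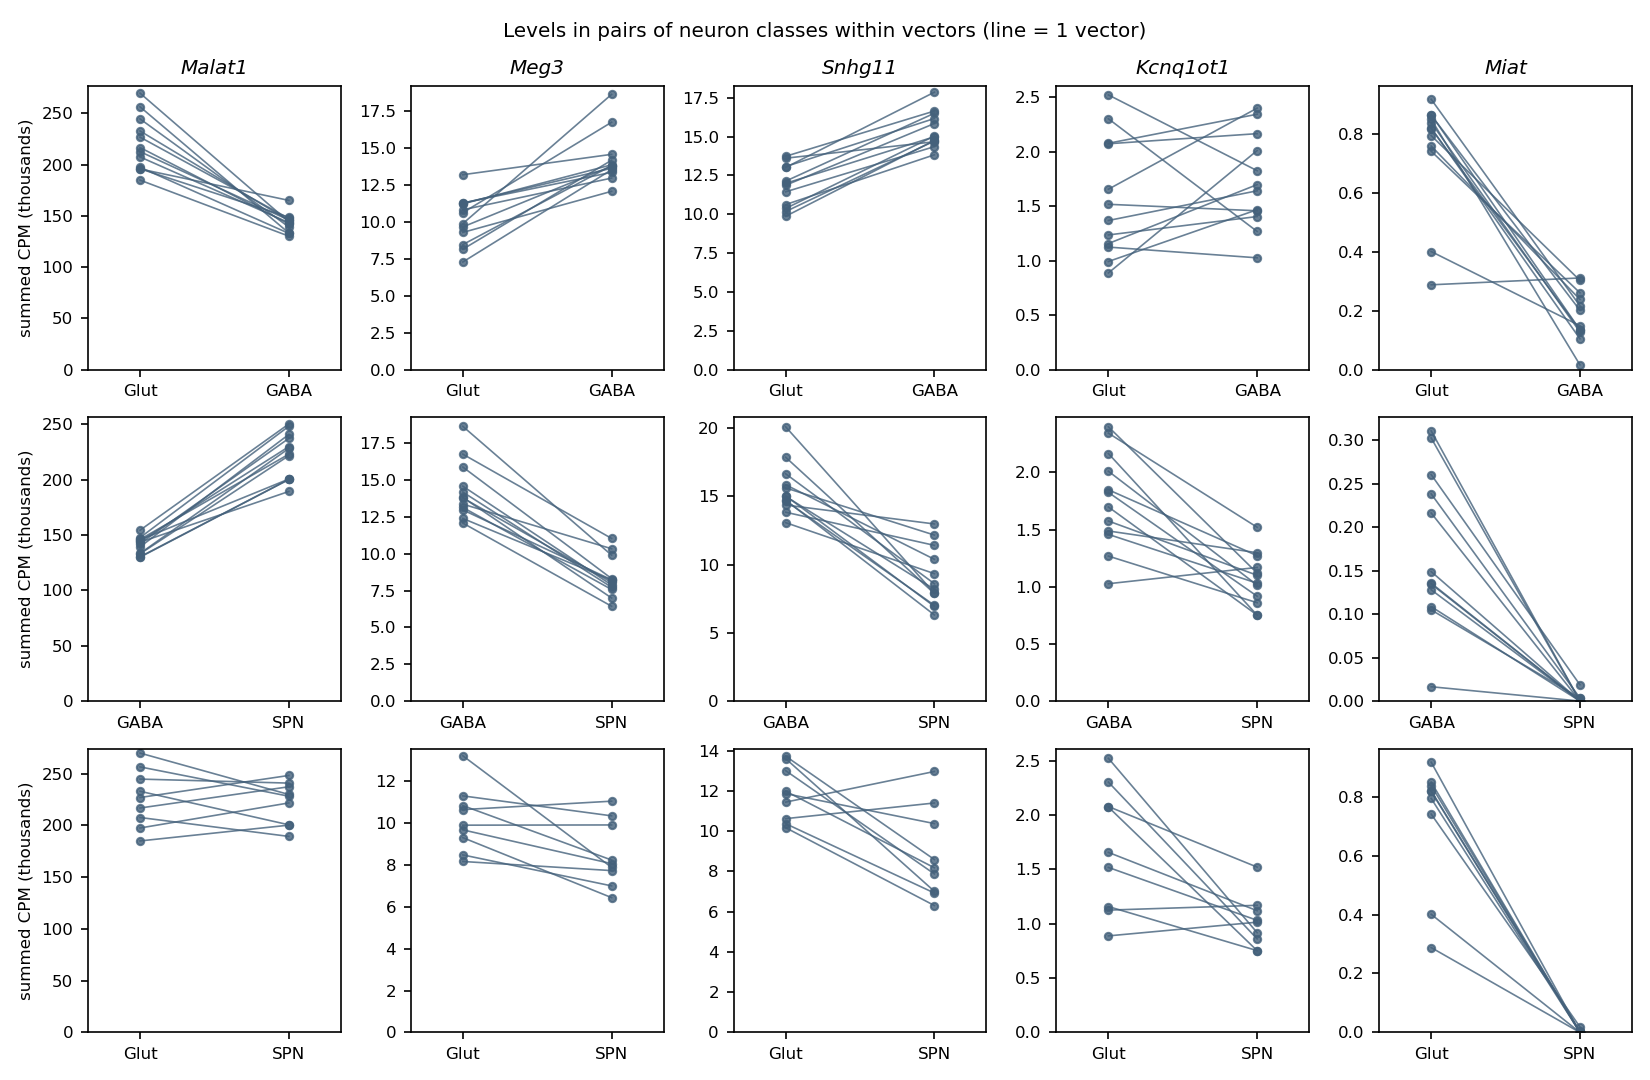
Level, in units of 1000 CPM, of Malat1, Meg3, Snhg11, Kcnq1ot1 and Miat in pairs of neuronal classes; each line joins the 2 sums of 1 vector, and rows are GABAergic-like with glutamatergic-like (12 vectors), striatal projection neuron-like with GABAergic-like (12) and striatal projection neuron-like with glutamatergic-like (9). Malat1 is lower and Meg3 and Snhg11 are higher in the GABAergic-like sum of every vector in the upper 2 rows.

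Neat1, the paraspeckle scaffold, was a glial RNA in these nuclei and highest in oligodendrocyte-like ones. Glial sums ran from 40.3 to 7769 CPM with a median of 836, and the neuronal sums of the same 15 vectors from 0 to 128 CPM with a median of 0. All 15 vectors were higher in glia, though the ranges overlapped, and the means were 1760 ± 2072 and 10.3 ± 32.7 CPM, a 171-fold ratio (edgeR adjusted p = 5.4e-08). The neuronal mean rests on the vector hI56i, which held the 128 CPM, and without it the ratio was 861. Oligodendrocyte-like sums lay between 2202 and 7769 CPM (median 3156) and astrocyte-like sums started at 0.580 CPM, with a median of 350. Each astrocyte-like sum was below each oligodendrocyte-like sum, and the means, 3719 ± 1844 (n = 7) and 298 ± 243 (n = 9), stood in a 12.5-fold ratio (log2 fold change -2.97 ± 0.75 for astrocyte-like minus oligodendrocyte-like, edgeR adjusted p = 0.00641). With no minimum of genes per nucleus the fold change was -2.90 and the call was lost (edgeR adjusted p = 0.540), where the median of all 4607 genes tested was 4.00. That fit held only 3 vectors, with the vector as a block, in place of the unblocked 9 against 7 sums. The nuclei, the block and the number of sums all changed, and their parts cannot be told apart.

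Neat1 was nearly absent from neurons. A count was found in 2 of 108 glutamatergic-like (1.85%), 5 of 273 GABAergic-like (1.83%) and 6 of 161 striatal projection neuron-like nuclei (3.73%), against 44 of 50 oligodendrocyte-like (88.0%, or 87.8% after thinning each nucleus to 150000 counts) and 63 of 106 astrocyte-like nuclei (59.4%, thinned 58.7%). The highest GABAergic-like sum, 520 CPM in the vector hI56i, held only 4 nuclei, and with 20.4 CPM in AiE0445h_3xC2 it was 1 of 2 GABAergic-like sums above 0.375 CPM. In oligodendrocyte-like sums the mean was 3161 ± 106 CPM in library series S40324 (n = 3) and 4138 ± 2500 in S40326 (n = 4), and in astrocyte-like sums 464 ± 245 (n = 5) and 137 ± 155 CPM (n = 4).

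The genes of proteins known from the 2 nuclear bodies were tested as lists. Of 21 tested paraspeckle proteins, 0 rose and 3 fell in glia against neurons, where 32.6% of all genes fell, with a list median of -1.74 on the log2 scale against -2.73 for all genes: Ss18l1 (-5.83 ± 1.64, edgeR adjusted p = 0.00594), Pspc1, a core paraspeckle protein (-5.44 ± 1.95, 0.0286), and Zc3h6 (-3.97 ± 1.52, 0.0403). By edgeR, 0 of the 21 were called between GABAergic-like and glutamatergic-like sums, where 0 had an unadjusted p under 0.05 and DESeq2 called 0. Between striatal projection neuron-like and GABAergic-like sums edgeR also called 0, with 1 at an unadjusted p under 0.05 and 2 called by DESeq2. Of all 9210 genes there, DESeq2 called 2779. By edgeR, 3.19% of all genes were higher and 5.34% lower in striatal projection neuron-like than in GABAergic-like sums. Of 25 speckle and SR proteins, 3 were higher and 1 lower there (list median 0.29, all genes -0.62). Among them were Srsf7, a splicing factor (1.22 ± 0.23, edgeR adjusted p = 0.00133), and Son, a scaffold of nuclear speckles (0.76 ± 0.14, 0.00113), both higher like Malat1 in that comparison; the lower one was Srrm4, a neuronal splicing regulator (-5.21 ± 1.16, 0.00485). Son was also higher in astrocyte-like than in oligodendrocyte-like sums (1.78 ± 0.42, edgeR adjusted p = 0.00410), at mean levels of 3391 and 1473 CPM. It was the 1 of 21 tested list genes called there, where 8.23% of all genes were higher and 1.69% lower. In glia against neurons 0 of the 25 were higher and 5 lower, where 32.6% of all genes were lower (list median -0.80, all genes -2.73). The largest of these changes were in Srrm3 (-10.36 ± 1.49), Srsf12 (-9.55 ± 1.76) and Srrm4 (-9.16 ± 1.63). Between GABAergic-like and glutamatergic-like sums, where Malat1 differed as much, 0 of the 25 were called by edgeR (list median -0.12, all genes 0.34). At an unadjusted p under 0.05 there were 2, and DESeq2 called 1, where it called 1529 of all 8943 genes.

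Meg3, Rian and Mirg, the 3 RNAs of the Dlk1-Dio3 domain, were found in neurons and almost not in glia. Meg3 sums ran from 7082 to 16333 CPM (median 11600) in neurons of 15 vectors and from 0 to 1752 CPM (median 0) in their glia. The ranges did not overlap, and the neuronal mean of 11703 ± 2375 CPM was 64.3 times the glial mean of 182 ± 468. The glial mean rests mostly on AiE0401h, the vector at 1752 CPM, and without it the ratio was 168. Rian, which hosts small nucleolar RNAs and miRNAs (13 and 4 annotated within the gene), averaged 677 ± 167 CPM in neurons and 9.34 CPM in glia, a 72.5-fold ratio that was 250-fold without AiE0401h. Mirg, a miRNA host with 15 annotated miRNAs, averaged 95.6 CPM and 1.94 CPM, a 49.3-fold ratio that was 108-fold without AiE0682h. All 3 were called lower in glia by edgeR (adjusted p = 5.4e-08, 7.1e-07 and 8.9e-06); their fitted log2 fold changes of -14.61 ± 1.58, -10.28 and -9.95 ± 1.52 rest on glial sums at or near 0 and depend on the fit's prior count.

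Among neurons, Meg3 was highest in GABAergic-like nuclei. The 12 GABAergic-like sums ran from 12089 to 18658 CPM (median 13812) and their glutamatergic-like partners from 7300 to 13214 CPM (median 10271). The ranges overlapped, but all 12 vectors were higher in the GABAergic-like sum (14282 ± 1765 against 10111 ± 1644 CPM, log2 fold change 0.38 ± 0.10, edgeR adjusted p = 0.0323). This call was close to its threshold: it was lost in 12 of 24 alternatives, among them DESeq2 (adjusted p = 0.119) and totals without Malat1 (0.0698). Against striatal projection neuron-like sums the gap was wider, with 6439 to 11046 CPM (median 8138) against 12089 to 18658 CPM (median 13812) and no overlap (log2 fold change -0.74 ± 0.09 for striatal minus GABAergic-like, edgeR adjusted p = 7.2e-06). Striatal projection neuron-like and glutamatergic-like sums differed less (-0.27 ± 0.12, adjusted p = 0.397, lower in 7 of 9 vectors).

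Rian and Mirg passed the test in none of the 3 neuronal comparisons by edgeR, with log2 fold changes of 0.22 and 0.45 for GABAergic-like against glutamatergic-like (adjusted p = 0.849 and 0.884) and -0.25 and -0.59 for striatal projection neuron-like against GABAergic-like (0.576 and 0.696), and DESeq2 called neither there. Rian counts were 6.23% ± 2.29 of Meg3 counts in glutamatergic-like, 5.23% ± 0.92 in GABAergic-like and 7.67% ± 2.11 in striatal projection neuron-like sums. Mirg counts were 1.01%, 0.781% and 0.944% of Meg3 counts. Of 6 protein-coding and other genes listed for the domain, 3 were tested, and 1 was lower in glia, where 32.6% of all genes were. This was Rtl1, a retrotransposon-derived gene of the domain (-9.29 ± 1.5, edgeR adjusted p = 1.79e-05). The list median was -4.99, against -2.73 for all genes. Between neuronal classes edgeR and DESeq2 called 0 of the 3, and 0 had an unadjusted p under 0.05.

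Kcnq1ot1, a paternal RNA antisense to the potassium channel gene Kcnq1 (chr7:143203458-143296549), was neuron-rich but present in many glia. Neuronal sums ran from 901 to 1987 CPM (median 1502) and glial sums from 0 to 1044 CPM (median 303). These ranges overlapped, yet all 15 vectors were lower in glia (331 ± 305 against 1476 ± 334 CPM, log2 fold change -2.78 ± 0.75, edgeR adjusted p = 0.00433), near the all-gene median of -2.73. A count was found in 49.1% of astrocyte-like and 38% of oligodendrocyte-like nuclei, and in 93.8% to 99.6% of nuclei of the neuronal classes. Striatal projection neuron-like sums had 752 to 1520 CPM (median 1066) and GABAergic-like sums 1027 to 2399 CPM (median 1762). The ranges overlapped, and 11 of 12 vectors were lower (-0.68 ± 0.18, edgeR adjusted p = 0.0180), close to the all-gene median of -0.62; the call was lost in 6 of 23 alternatives, with an adjusted p of 0.0614 without AiE0447h and 0.0517 without AiE0475m. Since strand is not recorded, intronic reads of Kcnq1 cannot be told apart from Kcnq1ot1.

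Peg13, an imprinted RNA inside the gene Trappc9 (chr15:72805600-72810324), was the least abundant member over the series, with a count in 127 of 800 nuclei. Its class means ran from 3.51 CPM in astrocyte-like to 49.8 CPM in GABAergic-like sums, with SDs of 3.82 and 49.7. It passed the test in 0 of 6 comparisons by edgeR (adjusted p from 0.380 in glia against neurons to 0.998 in Pvalb-like against Sst-like sums, and no unadjusted p under 0.05). DESeq2 called it higher in GABAergic-like than in glutamatergic-like sums (log2 fold change 2.63, adjusted p = 0.0197; 2.61 ± 1.57 and 0.595 by edgeR), where 9 of 12 vectors were higher. Of all 8943 genes in that comparison, DESeq2 called 1529 and edgeR 283. Peg13 lies on the same strand as Trappc9, whose reads cannot be told apart from its own there.

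Some genes around these 2 RNAs, and some other imprinted genes, were called. In glia 32.6% of all genes were lower and 2.1% higher, so a lower call there is common. In GABAergic-like against glutamatergic-like sums 1.69% of all genes were higher and 1.48% lower. In striatal projection neuron-like sums 5.34% were lower and 3.19% higher against GABAergic-like sums, and 1.42% and 1.66% against glutamatergic-like sums. Of 10 genes listed for the Kcnq1ot1 domain 3 were tested, and Cd81, a tetraspanin, was higher in GABAergic-like than in glutamatergic-like sums (2.59 ± 0.72, edgeR adjusted p = 0.0459) and in glia than in neurons (2.85 ± 0.44, 9.91e-06), while Tssc4 was lower in glia (-5.08 ± 1.99, 0.0446). In the Peg13 domain 1 of 5 tested genes was lower in glia, the potassium channel gene Kcnk9 (-8.15 ± 1.70, edgeR adjusted p = 3.67e-04). Of other imprinted genes, 3 of 20 were higher in GABAergic-like than in glutamatergic-like sums and 0 lower (list median 1.07, all genes 0.34): Nnat, Ndn and Nap1l5, with log2 fold changes of 6.37 ± 1.45, 5.81 ± 1.54 and 1.07 ± 0.30. In striatal projection neuron-like against GABAergic-like sums 4 of 21 were lower and 0 higher (list median -1.30, all genes -0.62), among them Blcap, Gnas and Nap1l5. In glia 10 of 22 were lower and 0 higher (list median -2.16, all genes -2.73), with Usp29, Grb10 and Rasgrf1 the largest changes. Between striatal projection neuron-like and glutamatergic-like sums 1 of 16 was lower and 0 higher, Herc3 (-4.91 ± 1.23, edgeR adjusted p = 0.0279; list median 0.18, all genes 0.04).

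Snhg11, a host of 2 annotated small nucleolar RNAs (chr2:158375638-158386145), was the most abundant member after Malat1 per kilobase of exon in all 3 neuronal classes, and it followed Meg3. The 15 neuronal sums ran from 8832 to 17343 CPM (median 12998) and the glial sums from 0.415 to 1476 CPM (median 1.87). The ranges did not overlap and the means, 13220 ± 2448 and 153 ± 402 CPM, stood in an 86.7-fold ratio, or 228-fold without AiE0401h, the vector at 1476 CPM (edgeR adjusted p = 1.8e-10). Snhg11 counts were 119% ± 17.1 of Meg3 counts in glutamatergic-like, 111% ± 13 in GABAergic-like and 110% ± 17.8 in striatal projection neuron-like sums. Glutamatergic-like sums had 9872 to 13732 CPM (median 11931) and the GABAergic-like sums of the same vectors 13829 to 17857 CPM (median 15013). These ranges did not overlap and all 12 vectors were higher, yet the test just missed its threshold (0.26 ± 0.07, edgeR adjusted p = 0.0512), and 9 alternatives passed it, among them without CMV (0.0101) and without hI56i (0.0147).

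The lower Snhg11 level in striatal projection neuron-like nuclei was called against GABAergic-like sums, with 6308 to 12970 CPM (median 8390) against 13067 to 20088 CPM (median 15013). No sum overlapped between the groups (-0.77 ± 0.12, edgeR adjusted p = 1.47e-04). Against glutamatergic-like sums it was lower in 7 of 9 vectors (8852 ± 2259 against 11872 ± 1353 CPM, -0.47 ± 0.13) and missed the threshold (edgeR adjusted p = 0.0635), but passed it without AiE0140h (0.0263) or AiE0450h (0.00935). The mean level over vectors thus ran from GABAergic-like to glutamatergic-like to striatal projection neuron-like nuclei for Snhg11 and Meg3; the step between the last 2 classes was not called by edgeR for either RNA.

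Miat differed between all 3 pairs of neuronal classes. Its sums ran from 288 to 917 CPM (median 819) in glutamatergic-like nuclei of 12 vectors and from 16.5 to 311 CPM (median 175) in their GABAergic-like nuclei. The ranges overlapped, 11 of 12 vectors were lower in the GABAergic-like sum, and the means of 746 ± 195 and 183 ± 87.3 CPM stood in a 4.07-fold ratio (-2.31 ± 0.37, edgeR adjusted p = 3.16e-04). Striatal projection neuron-like sums had 0 to 18.8 CPM with a median of 0. Against GABAergic-like sums (16.5 to 311 CPM, median 142) all 12 vectors were lower, by 82.1-fold in the means (edgeR adjusted p = 1.7e-05), and against glutamatergic-like sums the ranges did not overlap, with a 293-fold ratio of means (edgeR adjusted p = 1.9e-06). Both ratios rest on AiE0140h, the vector at 18.8 CPM, and without it they were 268 and 1732. Miat was also lower in glia than in the neurons of the same vector in 15 of 15 vectors (8.79 against 194 CPM, edgeR adjusted p = 8.6e-05), and the ratio of 22.1 was 36.4 without AiE0682h.

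Between nuclei Miat was close to present or absent. It had a count in 103 of 108 glutamatergic-like nuclei (95.4%, thinned 94.1%), 134 of 273 GABAergic-like nuclei (49.1%, thinned 48.1%) and 5 of 161 striatal projection neuron-like nuclei (3.11%, thinned 3.36%), at median depths of 246497, 254316 and 241227 counts. Astrocyte-like and oligodendrocyte-like nuclei had a count in 8.49% and 2% of nuclei. Within the GABAergic-like class, Miat had a count in 64 of 81 Sst-like nuclei (79.0%, thinned 76.6%) and 27 of 101 Pvalb-like nuclei (26.7%, thinned 26.8%). These names are loose in part. Of the Sst-like nuclei, 55 formed a subcluster led by Pdyn, with 0 Sst markers among its top 10 genes. Of the Pvalb-like nuclei, 21 formed one with 0 Pvalb markers among its top 10. With no minimum of genes, a Pdyn-led subcluster of 41 nuclei stayed unnamed. The sums of 10 vectors averaged 258 ± 155 CPM in Sst-like and 107 ± 118 CPM in Pvalb-like nuclei, lower in Pvalb-like in 8 of 10. The difference was not called by edgeR (-2.30 ± 0.97, adjusted p = 0.673) but was called by DESeq2 (-2.37, adjusted p = 0.0217). Of all 7271 genes in this comparison, DESeq2 called 603 and edgeR 36.

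Miat was found in all named glutamatergic-like subclasses: 816 ± 296 CPM in L5 IT-like (6 vectors), 783 ± 113 in L2-3 IT-like (3 vectors), 555 ± 288 in L6 CT-like (3 vectors) and 1221 CPM in the 1 vector with at least 3 L5 ET-like nuclei. The first 3 of these levels differ by less than the largest of their SDs over vectors, and the single L5 ET-like sum has no spread. The binding partners of Miat and Rmst were tested as a list of 5, where 2.1% of all genes were higher in glia and 32.6% lower. In glia 1 rose, Qk, an RNA-binding protein of oligodendrocytes and astrocytes (2.80 ± 0.51, edgeR adjusted p = 6.68e-05), and 1 fell, Celf3, a neuronal splicing factor (-7.88 ± 1.59, 2.48e-04; list median -1.39, all genes -2.73). Between GABAergic-like and glutamatergic-like sums 0 of 4 were called by edgeR or DESeq2 and 0 had an unadjusted p under 0.05. The transcription factor gene Sox2 was lower in striatal projection neuron-like than in GABAergic-like sums (-7.47 ± 1.61, edgeR adjusted p = 0.00411).

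Across Pvalb-like and Sst-like sums of 10 vectors no member was called: 0 of 8 tested by edgeR, where 0.495% of all 7271 genes were. At an unadjusted p under 0.05 there was 1 member, and DESeq2 called 1 (Miat, above), where it called 603 of the 7271 genes. Malat1 averaged 144962 ± 16364 and 155826 ± 22070 CPM (-0.12 ± 0.07), Meg3 13073 ± 2980 and 14571 ± 2841 CPM (-0.19 ± 0.10), and Snhg11 15728 ± 1154 and 14405 ± 2055 CPM (0.12 ± 0.08). The ranges of the 2 subclasses overlapped for each of these RNAs.

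Rmst, the SOX2 partner, marked astrocyte-like nuclei. Its 9 astrocyte-like sums ran from 264 to 894 CPM with a median of 486, and all 7 oligodendrocyte-like sums were at 0. Against the floor of 3 counts over the oligodendrocyte-like group, 0.210 CPM, the mean of 504 ± 218 CPM was at least 2405-fold higher (edgeR adjusted p = 2.7e-07). A count was found in 93 of 106 astrocyte-like nuclei (87.7%, thinned 87.5%) and 0 of 50 oligodendrocyte-like nuclei (exact Clopper-Pearson interval up to 7.11%). In glia as a whole, Rmst averaged 284 ± 267 CPM against 30.7 ± 39.6 CPM in neurons and was not called (3.18 ± 1.40, edgeR adjusted p = 0.0729). It was called in 6 alternatives, among them without AiE0779m (0.0344) and without hI56i (0.0351).

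Rmst was rare but not absent in neurons. It had a count in 16 of 108 glutamatergic-like nuclei (14.8%), 32 of 273 GABAergic-like nuclei (11.7%, thinned 11.2%) and 1 of 161 striatal projection neuron-like nuclei (0.621%). Among GABAergic-like subclusters the share was highest in an unnamed one of 16 nuclei led by Slc5a7 and Chat, genes of choline uptake and acetylcholine synthesis, where 9 nuclei (56.2%) had a count. Its 3 vector sums were 191, 439 and 960 CPM, beside 264 to 894 CPM in astrocyte-like sums. Sst-like nuclei had 74.1 ± 112 CPM (10 vectors) and a count in 17 of 81, and Pvalb-like nuclei had 1.54 CPM and a count in 2 of 101. Another unnamed subcluster, of 25 nuclei, was led by Fmo1 and Ltbp2 and scored for both Lamp5 (0.99) and Vip markers (0.90). Rmst was at 0 in these 25 nuclei. These subclass levels are a description of clusters, chosen after their values were seen, with no test.

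**Figure D3:**
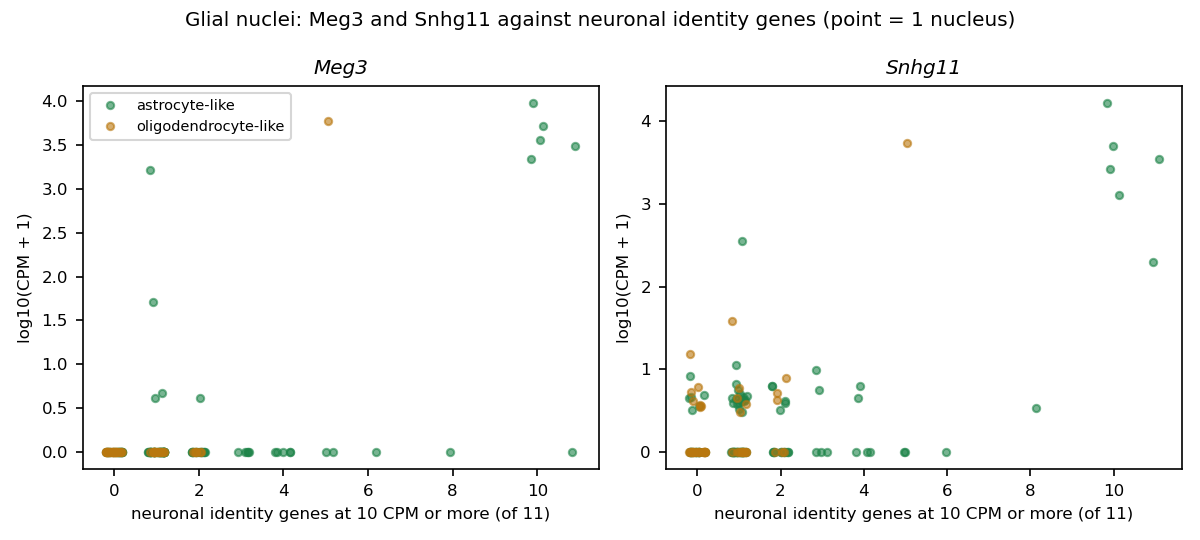
Meg3 and Snhg11 in single astrocyte-like and oligodendrocyte-like nuclei, as log10(CPM + 1), against the number of 11 neuronal identity genes that reach 10 CPM in that nucleus. The oligodendrocyte-like nucleus with 5941 CPM of Meg3 is the only one of its class that reaches 3 identity genes, and Meg3 is at 0 in the other 49.

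What glia held of the neuronal RNAs came mostly from few nuclei, as the plot against neuronal identity genes shows. Of 11 genes that most neurons express, at least 3 reached 10 CPM in 20 of 106 astrocyte-like and 1 of 50 oligodendrocyte-like nuclei, against 108 of 108 glutamatergic-like, 272 of 273 GABAergic-like and 159 of 161 striatal projection neuron-like nuclei. Without these 21 glial nuclei, the Meg3 mean over astrocyte-like sums went from 277 ± 713 to 14.9 ± 40 CPM and that over oligodendrocyte-like sums from 133 ± 353 to 0. Snhg11 went from 221 ± 603 to 4.13 ± 8.10 CPM and from 124 ± 325 to 1.5 ± 1.14 CPM. Mirg was then at 0 in both, and Rian at 1.19 and 0 CPM, while Kcnq1ot1 stayed at 390 and 298 CPM. The astrocyte-like means are over 9 vectors before and 8 after, since a vector left with fewer than 3 nuclei drops out. They thus differ in vectors as well as in nuclei. Pooled over all astrocyte-like nuclei, which needs no such minimum, Meg3 went from 230 to 26.6 CPM. The single oligodendrocyte-like nucleus, of vector AiE0682h, had 5941 CPM of Meg3, 5476 of Snhg11, 60.3 of Rian, 151 of Mirg and 77.0 of Miat. Whether such libraries hold more than 1 nucleus was not tested.

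**Figure D4:**
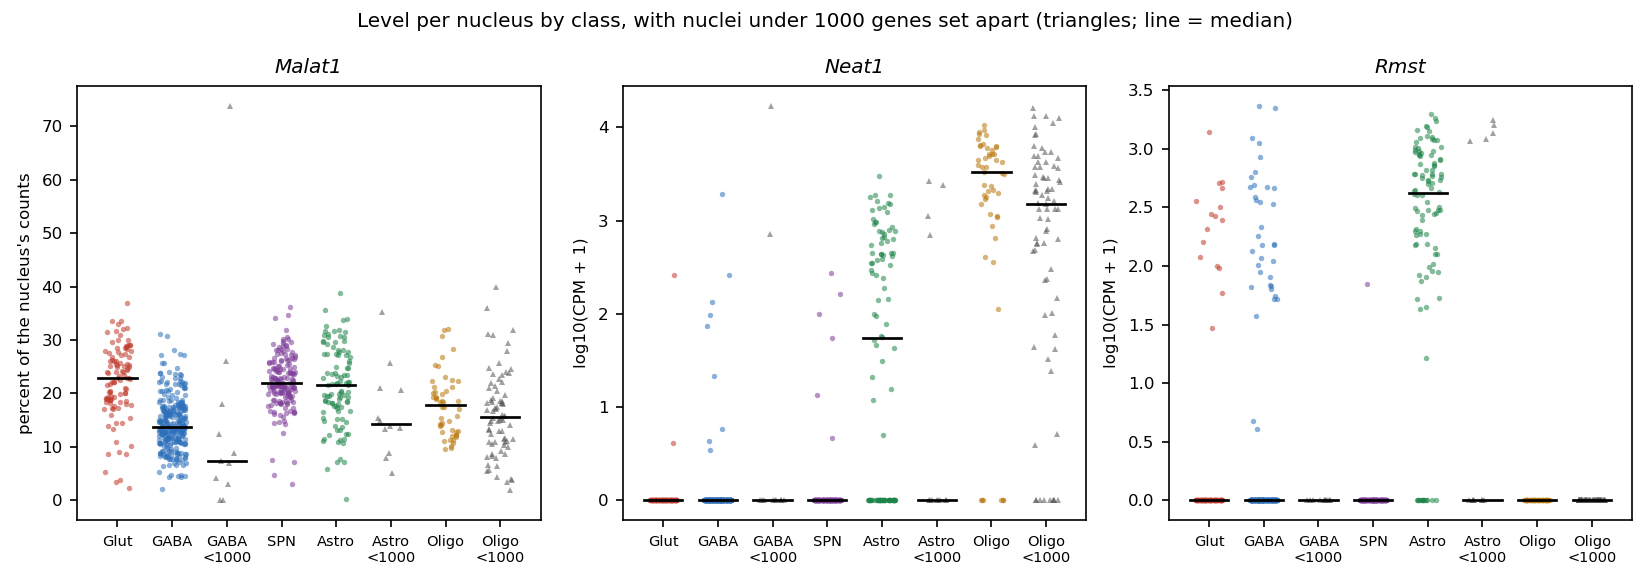
Malat1 as a percent of the counts of each nucleus, and Neat1 and Rmst as log10(CPM + 1), by class with all 800 nuclei clustered without a minimum of genes; grey triangles are nuclei under 1000 genes. Oligodendrocyte-like nuclei under 1000 genes hold Neat1 and no Rmst, as those with more genes do.

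Between nuclei of a class, Malat1 had a coefficient of variation from 0.226 in striatal projection neuron-like to 0.363 in astrocyte-like nuclei. In the 3 neuronal classes the coefficient was 0.244 to 0.387 for Snhg11, 0.337 to 0.397 for Meg3 and 0.579 to 0.762 for Kcnq1ot1. Of the 102 nuclei under 1000 genes, 76 joined the oligodendrocyte-like class when all 800 were clustered together, 12 the astrocyte-like, 11 the GABAergic-like, 2 the glutamatergic-like and 1 the striatal projection neuron-like class. The 76 had a median of 263785 counts, so they were not shallow, and 835.5 genes. Their mean Malat1 level was 178919 ± 42010 CPM over 8 vectors, against 178916 ± 34109 over 7 vectors for the 50 with more genes. Pooled over nuclei it was 159488 against 179320 CPM, and the median nucleus had 156224 against 179262 CPM. Neat1 had a count in 67 of the 76 (88.2%) and in 44 of the 50 (88.0%), with a mean of 3077 ± 1440 against 3719 ± 1844 CPM, within the spread over vectors, and a median nucleus of 1521 against 3298 CPM. Rmst was found in 0 of the 76 (exact Clopper-Pearson interval up to 4.74%), and Meg3 in 7.

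Low-gene nuclei of the other classes were few. Of the 12 astrocyte-like ones, 5 had an Rmst count (41.7%), 4 had Neat1 and 0 had Meg3. The 11 GABAergic-like ones had a median of 84185 counts and 264 genes, and Malat1 took 7.45% of the counts of the median nucleus, Meg3 and Snhg11 were each found in only 5 of 11, and 1 nucleus had 17077 CPM of Neat1. The libraries with the fewest counts stood at both ends: nuclei with 70 counts (AiE0391h) and 484 counts (DLX2.0) had 0 of Malat1, the only 2 of 800 without it, and a nucleus with 1267 counts (CMV) gave 936 of them, 73.9%, to Malat1.

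**Figure D5:**
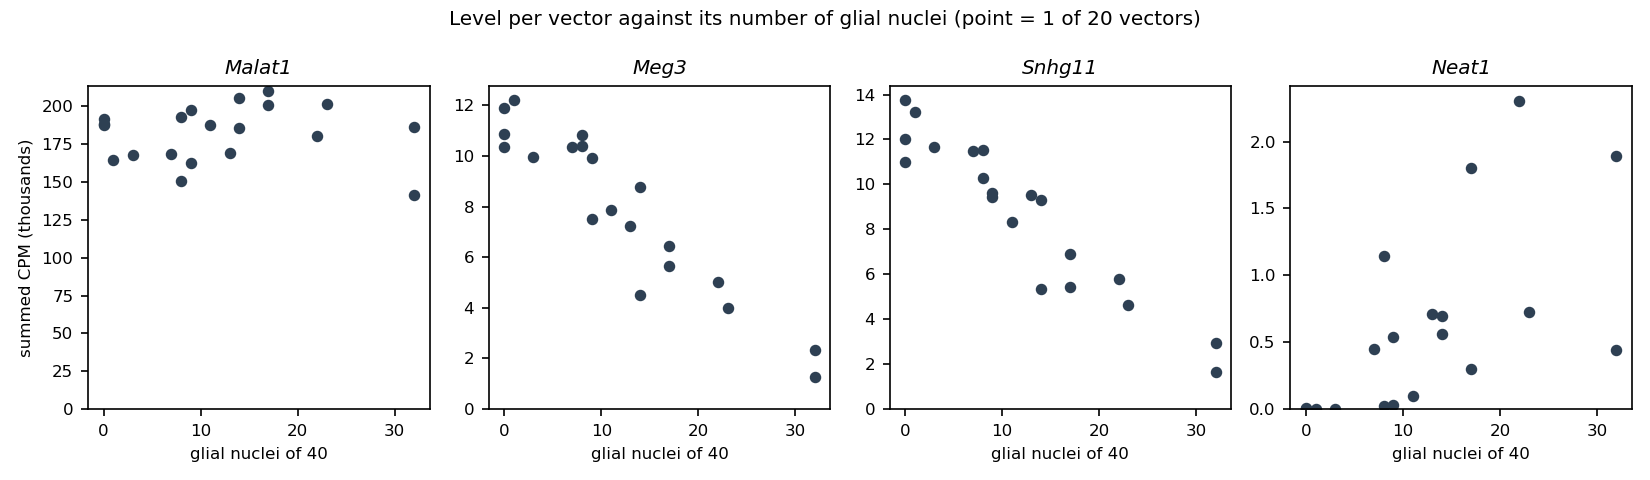
Malat1, Meg3, Snhg11 and Neat1, in units of 1000 CPM, over all 40 nuclei of each of the 20 vectors, against the number of those nuclei in the glial classes, with all nuclei clustered. Vectors with many glial nuclei, such as AiE0410m and AiE0390m, have the lowest Meg3 and Snhg11.

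Summed over all 40 nuclei of a vector, Meg3 and Snhg11 were lowest in the 2 vectors with most glial nuclei, as the plot against glial nuclei shows. Meg3 ran from 1268 CPM in AiE0410m, with 32 glial nuclei, to 12219 CPM in AiE0475m, with 1. Snhg11 ran from 1653 CPM in AiE0410m to 13775 CPM in hSyn1, the neuronal promoter, with 0 glial nuclei. AiE0390m, also with 32 glial nuclei, had 2349 CPM of Meg3 and 2950 of Snhg11. These values move with the class makeup, and a change within a class cannot be read from them.

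The glial RNAs told the 2 glia-rich vectors apart. Neat1 was 1893 CPM in AiE0410m, and 2300 CPM in AiE0447h was the highest value; Rmst was 0 in both. AiE0390m had 362 CPM of Rmst, near the highest value of 369 CPM in AiE0391h. Neat1 was at 0 in hSyn1 and AiE0387m, where 3 counts would be 0.304 and 0.299 CPM. Miat ran from 0.0987 CPM in AiE0410m to 595 CPM in hSyn1, and CMV, the other general promoter, had 456 CPM. Malat1 had the narrowest range of the 10 RNAs in proportion to its level, from 141330 CPM in AiE0410m to 209935 CPM in hI56i.

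Over the 60 sums of a vector and class, the gene with a pattern most like Meg3 was Snhg11 (Pearson r = 0.98 of log2(CPM + 1), among 8450 genes with a mean of at least 20 CPM), followed by Rian and Nav3 (both 0.98). Mirg was most like Srrm3, Mir124a-1hg (both 0.93) and Cacna1a (0.92), and Miat most like Kcnj6, Vwa5b2 (both 0.87) and Sidt1 (0.86). Neat1 was most like Cdh19 (0.90), Cmtm5 (0.85) and Olig1 (0.84), and Rmst most like Gabrg1, Gm11266 (both 0.79) and Prex2 (0.77). Kcnq1ot1 was most like Ube3a (0.85), Ice1 (0.83) and Pi4ka (0.82), and Malat1 most like Nrgn (0.70), Inf2 (0.66) and Ptk2b (0.65). Peg13 had no close match, with Prdx2 (0.57), Dnttip1 (0.55) and Nop58 (0.52). The sums share the class and, in part, the vector, so these values mostly describe which classes hold a gene.

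Within a class the likeness was weaker. Between single nuclei, Spearman's rho of Meg3 and Snhg11 was 0.23 in 108 glutamatergic-like, 0.29 in 273 GABAergic-like and 0.40 in 161 striatal projection neuron-like nuclei. Meg3 and Rian had 0.28, 0.22 and 0.29, and Malat1 and Meg3 had 0.13, 0.08 and 0.16. Nuclei share libraries' depth and vectors, and these are descriptions with no test.

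Other long noncoding RNAs, from a list of 38, were described by the same tests. Of 25 tested, 9 were lower and 0 higher in glia than in neurons, where 32.6% of all genes were lower (list median -3.47, all genes -2.73), with the largest changes in Mir124a-1hg, the host of a neuronal miRNA (-11.43 ± 1.21, edgeR adjusted p = 4.26e-08), Dlx6os1 (-11.32 ± 1.43, 7.64e-07) and A330008L17Rik (-8.15 ± 1.60, 1.83e-04). Dlx6os1, antisense to the interneuron gene Dlx6, was the 1 of 25 higher in GABAergic-like than in glutamatergic-like sums (9.60 ± 1.31, edgeR adjusted p = 3.11e-05), where 1.69% of all genes were. The list median was 0.05, against 0.34 for all genes. In striatal projection neuron-like against GABAergic-like sums 3 of 26 were lower and 0 higher (list median -0.20, all genes -0.62): Sox2ot, Dlx6os1 and Snhg20. Of all genes, 5.34% were lower and 3.19% higher there. Astrocyte-like sums had 3 of 17 higher and 1 lower than oligodendrocyte-like sums (list median 0.97, all genes 0.71), with Mir9-3hg, Lncpint and Mir99ahg the largest changes. Of all genes in that comparison, 8.23% were higher and 1.69% lower. Scaling by relative log expression in place of TMM moved the median of all genes by more than 0.1 in 2 comparisons, from 0.04 to -0.08 in striatal projection neuron-like against glutamatergic-like sums and from 0.71 to 0.50 in astrocyte-like against oligodendrocyte-like sums.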

How the data were processed

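Counts are raw read counts per gene and nucleus, as the authors deposited them. The submitters' processing notes name STAR 2.7.2a and mm10; annotation and counting rule, and whether intronic reads were counted, are not given in these sources. Of 2501 columns, 1701 without a sample label were not used. Members and gene lists were chosen with earlier results of these data known.

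Nuclei with at least 1000 genes were clustered (scanpy 1.11.5, leidenalg 0.10.2) without the members and list genes. Clusters were named from fixed markers, with the scoring settled after the clusters were seen. Counts were summed per vector and class (at least 3 nuclei) and tested with edgeR 4.0.16 (TMM, filterByExpr, quasi-likelihood, Benjamini-Hochberg over all genes tested, threshold 0.05). The vector was a block, since both sums of a pair carry the same vector label. The astrocyte-like against oligodendrocyte-like test has no block, because 1 vector held both. On simulated counts for GABAergic-like against glutamatergic-like, 191 of 193 changed genes were called with the right sign. Of 8932 genes tested there, 9 unchanged ones were called. Recovery at fold changes as small as those of Malat1, Meg3 and Snhg11 in this comparison was not tested.

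Detection shares were also computed after thinning each nucleus to 150000 counts, leaving out 49 shallower ones. Intervals and floors cover counting error only, and reads without molecular identifiers are not independent molecules. All 10 members were named; from each list, up to 3 called genes with the largest changes; for likeness, the 3 genes of highest correlation. Alternatives were DESeq2 1.42.0, other scaling, filters, thinning, equal numbers of nuclei, other class rules, single library series and leaving out vectors.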

Additional observations from a re-analysis of the deposited data

Results flagged for a closer look

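In 11 of 19 groups of 4 to 10 vectors, the highest vector sum stood apart from the others by Dixon's ratio. The usual chance rate of this ratio holds for normal values, and many of these sums are at or near 0. In oligodendrocyte-like nuclei Meg3, Rian, Mirg and Miat were at 0 in all vectors but AiE0682h, which fixes the ratio at 1. No chance rate is therefore given. The groups are not independent, since the same nuclei give several of them. In astrocyte-like nuclei the sum of AiE0401h, which holds 4 nuclei, was highest for Meg3 (2166 CPM), Snhg11 (1826 CPM), Rian (126 CPM) and Mirg (14.9 CPM), and that of AiE0391h was highest for Miat (35.7 CPM). In oligodendrocyte-like nuclei AiE0682h, with 6 nuclei, was highest for Meg3 (933 CPM), Snhg11 (861 CPM), Mirg (23.7 CPM), Miat (12.1 CPM) and Rian (9.47 CPM). In AiE0682h these RNAs came from the oligodendrocyte-like nucleus that reaches the report's minimum of neuronal identity genes, Snhg11 mostly and the others wholly. For AiE0401h no values are given by nucleus, and whether its neuronal RNAs came from such nuclei was not tested. The oligodendrocyte-like sum of AiE0140h, of 4 nuclei, had 7769 CPM of Neat1, against 3724 CPM in the next vector.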

How the results depend on the processing

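Of the refitted log2 fold changes of single members, 994 kept direction and side of the threshold, 36 passed it newly, 25 lost it and 35 turned in sign, all 35 in members that were not called. The number of members called between striatal projection neuron-like and glutamatergic-like sums was 1, and became 2 with equal numbers of nuclei, library series S40326 only, thinned counts or totals without Malat1, 3 with DESeq2, 4 with relative log expression and 5 with no filter; leaving out 1 vector gave 1 to 2, with 2 without AiE0140h or AiE0450h. Of all 7595 genes in that comparison, DESeq2 called 1066, against 234 in the main edgeR fit. Between Pvalb-like and Sst-like sums DESeq2 called 603 of 7271 genes, against 36. Astrocyte-like against oligodendrocyte-like fell from 3 to 1 with no minimum of genes, in a blocked fit of 3 vectors in place of the unblocked main fit. Pvalb-like against Sst-like rose from 0 to 1 with DESeq2, with at least 5 nuclei and without the runs that hold striatal projection neurons, and to 2 with no filter. A run here is a block of 8 consecutive title numbers of a vector. The labels do not name such runs, and they may not be batches. Leaving out 1 vector gave 2 to 4 calls for GABAergic-like against glutamatergic-like, 7 to 8 for glia, 4 to 5 for striatal projection neuron-like against GABAergic-like, 3 for astrocyte-like against oligodendrocyte-like and 0 for Pvalb-like against Sst-like. Without the vector as a replicate block the pairing was dropped and these counts were 3, 8, 5, 1 and 0 in the order of the blocked tests, with Rmst newly called in glia (adjusted p = 0.0431). The cause was not tested.

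These log2 fold changes turned in sign. GABAergic-like against glutamatergic-like: Rmst 1.37 (at least 5 nuclei), 0.54 (no replicate block) and -0.93 to 0.58 (leave-one-out); Kcnq1ot1 -0.15 (equal nuclei), -0.019 (no replicate block) and -0.064 to 0.14 (leave-one-out); Mirg -0.040 (S40326). Glia against neurons, Malat1: 0.11 (DESeq2), 0.11 (relative log expression), 0.16 (at least 5 nuclei), 0.0035 (no minimum), 0.021 (no filter), 0.061 (no replicate block), 0.10 (S40324), 0.62 (without striatal runs) and -0.25 to 0.32 (leave-one-out). Striatal projection neuron-like against glutamatergic-like: Rian 0.21 (at least 5 nuclei) and 0.19 (S40326); Malat1 0.040 (at least 5 nuclei) and -0.10 to 0.031 (leave-one-out). Pvalb-like against Sst-like: Snhg11 -0.032 (at least 5 nuclei) and -0.055 (without striatal runs), Kcnq1ot1 -0.086 and -0.28 under the same settings, Peg13 0.0059 (thinned).

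Lost calls, with fold change and adjusted p, were Meg3 between GABAergic-like and glutamatergic-like sums (0.21 to 0.42 in 12 settings, p up to 0.0957 without 1 vector), Miat there in S40326 only (-2.45, 0.129), Kcnq1ot1 between striatal projection neuron-like and GABAergic-like sums (-0.44 to -0.56 in 6 settings), Kcnq1ot1 (-2.14, 0.265) and Miat (-6.07, 0.0626) in glia in S40324 only, Kcnq1ot1 in glia without striatal runs (-2.35, 0.0640), Malat1 between astrocyte-like and oligodendrocyte-like sums by DESeq2 (0.54, 0.624), and Neat1 (-2.90, 0.540) and Malat1 (1.28, 0.167) there with no minimum of genes. The astrocyte-like against oligodendrocyte-like fit with no minimum of genes was blocked and held 3 vectors, unlike its unblocked main fit. Of the ratios of means of called members, 232 of 240 values without 1 vector stayed within 1.5 times. The 8 others were higher, and stand beside the ratios. Series S40324 alone was run only for glia against neurons, since the other comparisons had too few vectors. Sums of 3 or 4 nuclei, rare RNAs such as Peg13 and Mirg, and the absence of animal labels limit the precision.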
